A study of Saccharomyces cerevisiae with 12 samples.

Results

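The effect of the Rpd3-2SA mutation that budding yeast showed on average over growth in glucose and in sucrose was measured by RNA sequencing. For each gene it is the mean of 2 log2 differences, 2SA minus WT in glucose and 2SA minus WT in sucrose, and all 12 libraries of the series and all 7127 features of the count table entered it. The libraries fall into 4 groups of 3: Rpd3-2SA cells in sucrose, Rpd3-2SA cells in glucose, WT cells in sucrose and WT cells in glucose. The labels name the haploid laboratory strain BY4741, a derivative of S288C, for all cells, which were grown to mid-log phase either in the rich medium YPD, whose sugar is glucose, or with sucrose. The labels give the genotype only as Rpd3_2SA: which residues were changed, how the allele was made and whether several clones were used are not stated in the sources at hand. The design text calls the replicates biological. Library numbers link a 2SA library with the WT library of the same number in the same sugar, which gives 6 pairs, 3 in each sugar.

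Rpd3 is a histone deacetylase that removes acetyl groups from the tails of histones at promoters and along transcribed genes. It acts in a large complex, Rpd3L, which DNA-binding proteins such as Ume6 and Ash1 bring to promoters, and in a small complex, Rpd3S, which acts over transcribed regions. Ume6 and Rpd3 are best known for holding down early meiotic genes, the inositol synthesis gene INO1 and the arginase gene CAR1 in growing cells. Deletion of RPD3 is also known to strengthen silencing near chromosome ends.

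Library totals ran from 20775911 to 25360037 counts, and 6085 features passed the filter on low counts while 1042 did not. RPD3 itself had 125, 108 and 101 CPM (counts per 1000000 counts of the library total, scaled between libraries by TMM) in 2SA libraries 1, 2 and 3 in glucose, against 136, 102 and 90.7 CPM in WT. In sucrose it had 122, 135 and 104 CPM in 2SA and 129, 133 and 103 CPM in WT. Its mean log2 difference was 0.01 ± 0.06 (SE), and a change of residues leaves the count of a gene as no check of the label. BY4741 is known to lack URA3, LEU2 and MET17. LEU2 had 1 count and MET17 had 0 counts over all libraries, but URA3 had 261 to 414 CPM in 2SA and 233 to 521 CPM in WT, which goes against the strain label in both genotypes. A different strain and a URA3 marker put into all strains cannot be told apart from the data at hand. The a-cell markers of the BY4741 mating type summed to 281 to 353 CPM in 2SA and 365 to 623 CPM in WT in sucrose, and to 440 to 663 CPM in 2SA and 655 to 725 CPM in WT in glucose. The 4 alpha-cell markers summed to 55.4 to 69.7 CPM in 2SA and 46.8 to 65.9 CPM in WT over both sugars. Most of this was SAG1, alpha-agglutinin, at 51.2 to 65.7 CPM in 2SA and 42.5 to 59.7 CPM in WT, and the pheromone gene MF(ALPHA)2 was at 3.85 to 6.92 CPM in 2SA and 3.38 to 6.20 CPM in WT. The other pheromone gene, MF(ALPHA)1, had 25 counts over all libraries. STE3, the a-factor receptor of alpha cells, was at 3.32 CPM in WT library 1 in glucose and 4.67 CPM in WT library 1 in sucrose, and at no more than 0.241 CPM in the other 10 libraries. In sucrose both libraries numbered 2 stood apart, with a ribosomal protein share of 5.85% of counts in 2SA and 4.09% in WT, against 9.68% to 13.4% in the other sucrose libraries. Counts that rest on these libraries are given below also without all libraries numbered 2 or without all numbered 1.

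Averaged over both sugars, more genes were lower than higher in 2SA. With an adjusted p under 0.05 and a fold change over 1.5, 135 features (2.22% of those tested) were called lower in 2SA and 17 (0.279%) were called higher (edgeR, quasi-likelihood F-test, Benjamini-Hochberg adjustment over all features tested). Without the fold threshold, 253 features (4.16%) were lower and 126 (2.07%) were higher. Among the called features the median fold was 2.19 in the lower direction and 1.91 in the higher direction. Of the 135 lower features, 70 were also called in sucrose alone, 22 in glucose alone and 65 in neither. Of the 17 higher features, 11 were also called in sucrose alone, 5 in glucose alone and 5 in neither. In sucrose alone 98 features (1.61%) were lower and 14 (0.230%) higher, and in glucose alone 22 (0.362%) were lower and 7 (0.115%) higher. Without all libraries numbered 2, the mean contrast called 53 lower (0.870%) and 11 higher (0.181%). Without all numbered 1 it called 125 lower (2.05%) and 20 higher (0.329%). Of the lower features, 46 had a WT mean under 5 CPM and 47 had a near copy elsewhere in the genome, so their reads may be shared with that copy.

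The effects of 2SA in both sugars mostly had the same sign among called features. Of the 152 called features (2.5% of those tested), 151 had the same sign in glucose as in sucrose, and the exception was YER138C, a Ty element reading frame. Over all 6085 features tested, the log2 differences in glucose and in sucrose, which share no library, correlated with Pearson's r = 0.701, a description across genes, which are not independent replicates. Of the lower features, 128 were lower in all 6 pairs, against 7.67% of all features tested, and 16 of the 17 higher features were higher in all 6 pairs, against 7.86%. No 2SA library reached a WT library of the same sugar in 67 of the lower features (1.40% of all features tested were so separated), and no WT library reached a 2SA library in 10 of the higher ones (0.641%). These shares use the libraries that made the calls and are descriptions of them.

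**Figure D1:**
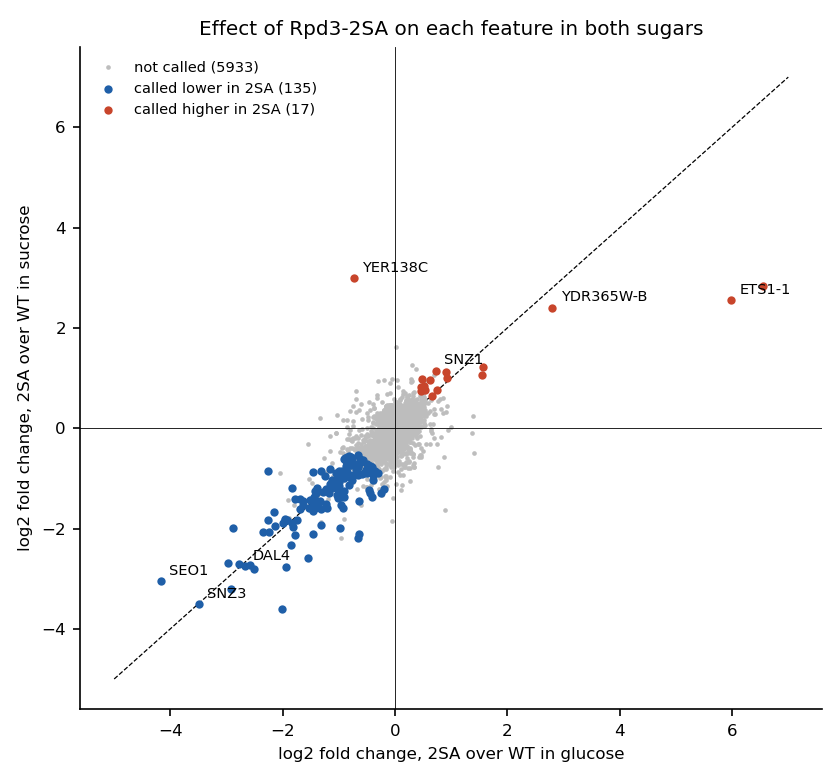
Log2 fold change of 2SA over WT in sucrose (y axis) against that in glucose (x axis) for the 6085 features tested, with the 135 called lower in the mean of both sugars in blue and the 17 called higher in red; the dashed line marks equal effects. The called features lie in the lower left and upper right, apart from YER138C, which is above 0 in sucrose and below 0 in glucose.

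The pairs numbered 1 gave the largest drops. Among the 135 lower features, the glucose pair 1 had the largest drop of the 3 glucose pairs in 90 and the sucrose pair 1 had the largest of the sucrose pairs in 74. Their median log2 differences were -1.31 in glucose pair 1 and -1.37 in sucrose pair 1, against -0.75 and -0.94 in glucose pairs 2 and 3 and -1.02 in both other sucrose pairs. In YOL163W, DAL4 and BNA2 the WT library numbered 1 was the highest WT library of each sugar, while in SNZ3 it was the lowest. How far the 2SA and the WT libraries made up these drops was not counted over the 135 features. Deviations of a pair's difference from its sugar's mean correlated with r = 0.520 between glucose pair 1 and sucrose pair 1, across genes. The pairs numbered 1 in both sugars are thus not shown to be independent of each other. When the counts of both sugars were summed within each number, leaving 3 pairs, 56 features were lower and 12 higher, and 66 of the 152 calls remained.

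**Figure D2:**
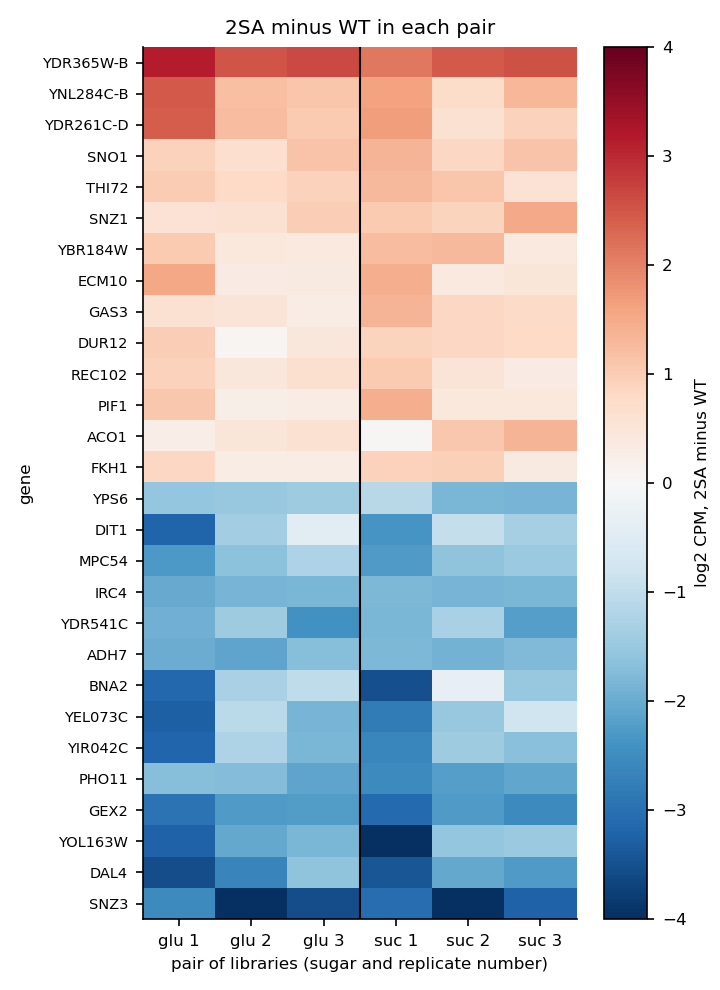
Difference of log2 CPM, 2SA minus WT, in each of the 6 pairs (columns, glucose pairs left and sucrose pairs right) for the 14 genes with the largest increases and the 14 with the largest decreases (rows); red is higher in 2SA and blue lower, and the scale ends at 4 in either direction. Only genes with the same sign in all 6 pairs could be chosen, so that sign is set by the rule. YOL163W, DAL4 and BNA2 show darker blue in pair 1 of both sugars.

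Genes near chromosome ends were often called lower. Of the features tested within 10 kb of an end, 33 of 87 were called lower (37.9%), and their median log2 difference was -0.62. Between 10 and 30 kb, 37 of 260 were lower (14.2%), with a median of -0.09. Farther in, 19 of 1134 were lower between 30 and 100 kb (1.68%) and 46 of 4601 beyond 100 kb (1%), with medians of 0.02 and 0.01. None of the 347 features within 30 kb was called higher, where 0.279% of all features tested were. Among features with no near copy, 12 of 32 were lower within 10 kb (37.5%) and 17 of 191 between 10 and 30 kb (8.90%). Of the lower calls, 70 of 135 lay within 30 kb of an end. Without the libraries numbered 1 this was 61 of 125, without those numbered 2 it was 35 of the 51 that the main fit also tested, and with no replicate block it was 27 of 32 (0.526% of features tested).

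**Figure D3:**
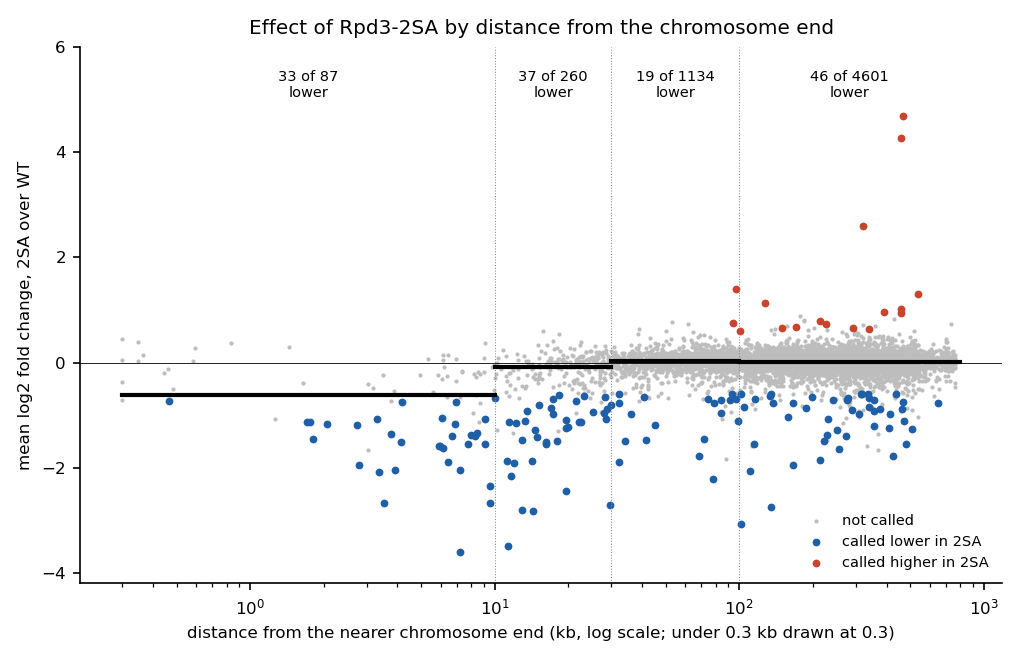
Mean log2 fold change of 2SA over WT (y axis) against the distance from the nearer chromosome end in kb on a log scale (x axis), with called features coloured and thick lines at the median of each distance class. The median is -0.62 within 10 kb and 0.01 beyond 100 kb.

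The lower genes often stood side by side. Of the 135, 51 (37.8%) had another lower feature as the next tested feature on the chromosome, as did 3.85% of all features tested. There were 20 such runs, the longest of 5 on the left arm of chromosome XIV, which holds COS1, DDI2, SNO2, SNZ2 and THI12. Only the runs of BAR1 with YIL014C-A and of DAL1 with DAL4 held members farther than 30 kb from an end. Within 30 kb, 20.2% of all features tested were lower, and the share with a lower neighbour was not computed for that zone alone. On the left end of chromosome XV, 8 of 11 features tested within 30 kb were lower, with a median of -0.89. A run near the right end of chromosome IV holds FDC1, IRC4 and YDR541C. Of the 32 chromosome ends, 22 had a lower call within 30 kb, while neither end of chromosomes XII and XIII had any.

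IRC4, a gene of unknown function at chrIV:1517136-1517675, dropped evenly in all pairs. In glucose it had 6.83, 4.45 and 5.01 CPM in 2SA libraries 1, 2 and 3, against 27.9, 16.4 and 17.9 CPM in WT. Its sucrose libraries had 8.67, 8.46 and 4.67 CPM in 2SA and 30.4, 30.6 and 16.9 CPM in WT. The groups did not overlap in either sugar, and the 6 paired log2 differences lay between -2.02 and -1.80. Its mean difference was -1.88 ± 0.08 (SE), or 3.68-fold lower in 2SA, with an adjusted p of 1.09e-05 in edgeR. The neighbouring YDR541C had 3.09 to 5.08 CPM in 2SA and 8.37 to 19.7 CPM in WT in glucose, and 2.77 to 5.17 CPM in 2SA and 8.001 to 18.7 CPM in WT in sucrose (mean -1.88 ± 0.16). FDC1, a decarboxylase of aromatic acids, fell less, by 0.61 ± 0.11.

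ADH7, an NADPH-dependent alcohol dehydrogenase at chrIII:309070-310155, has no near copy and also dropped in every pair. In glucose it had 2.94, 2.43 and 4.05 CPM in 2SA, against 11.99, 10.8 and 13.3 CPM in WT. With sucrose the values were 4.43, 4.68 and 3.84 CPM in 2SA and 15.6, 17.6 and 13.2 CPM in WT. Every 2SA library was under every WT library of its sugar, and the fold was 3.72 lower in 2SA (mean -1.90 ± 0.10, adjusted p 1.92e-05, edgeR). GEX2, a glutathione exchanger, fell 6.33-fold, with 0.827 to 2.04 CPM over the 2SA libraries and 5.30 to 17.0 CPM over those of WT. The reading frame of its near copy GEX1, 99.0% identical, had 5 counts in all and was not tested. DDI3, a cyanamide hydratase, fell by 2.35 ± 0.25 and its near copy DDI2 by 1.14. In the list of drug and glutathione transport genes and oxidoreductases, 4 of 29 tested members were thus lower, against 2.22% of all features tested. None was higher, and the list's median was 0.00, against 0.01 over all features tested. Within 30 kb of an end, where 20.2% of all features tested were lower, lie 10 of the 29. The called ADH7, GEX2, DDI3 and DDI2 are among them, and the part of position in their values was not tested.

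**Figure D4:**
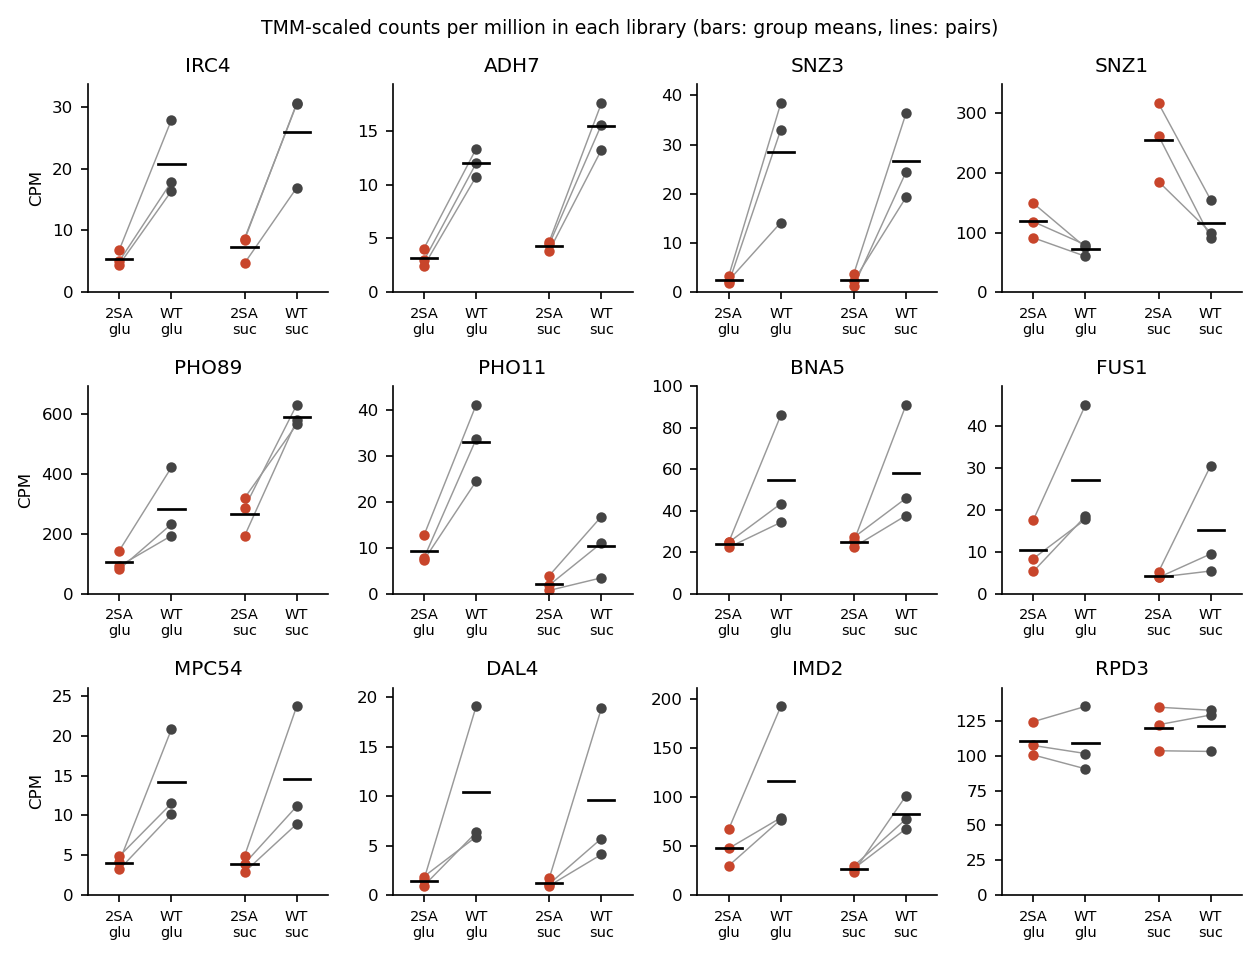
TMM-scaled CPM (y axis, starting at 0) of 12 genes in each library, with 2SA in red and WT in grey for glucose and then sucrose; thin lines join the pairs and black bars are group means. IRC4 and ADH7 drop and SNZ1 is higher in 2SA in every pair, and RPD3 has a mean log2 difference of 0.01.

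The COS genes, a family of membrane proteins encoded next to telomeres that help sort proteins for turnover, were the list with the largest share of lower members. Of 11 tested, 6 were lower (COS1, COS2, COS5, COS7, COS10 and COS12), against 2.22% of all features tested, and none was higher. The median was -1.07, against 0.01 over all features tested. Of the 11, 10 lie within 30 kb of an end, where 20.2% of all features tested were lower. Within 10 kb that share was 37.9%, with a median of -0.62. The part of position in the values of this family was not tested. COS7, 1.8 kb from the left end of chromosome IV, had 9.35, 5.72 and 6.601 CPM in 2SA in glucose, against 24.9, 14.01 and 15.8 CPM in WT. The values in sucrose were 11.2, 10.03 and 4.72 CPM in 2SA and 35.0, 28.8 and 14.9 CPM in WT. The groups did not overlap, and the fold was 2.75 lower in 2SA (adjusted p 1.92e-05, edgeR). COS10, which has no near copy by the threshold used, had 3.02 to 5.73 CPM in 2SA and 7.85 to 11.1 CPM in WT over both sugars. COS6 and COS9 did not pass the test, at -0.23 and -0.09. Without the libraries numbered 1, 4 COS genes were lower, and without those numbered 2, 5 were.

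Members of the hexose transporter family fell. Of 18 tested members of the list, HXT9, HXT11, HXT13, HXT15, HXT17 and GAL2, the galactose permease, were lower, against 2.22% of all features tested. None was higher, and the median was -0.30. Of the 18, 17 had a negative mean difference, as did 2846 of the 6085 features tested. Within 30 kb of an end, where 20.2% of all features tested were lower, lie 6 of the 18. The called HXT9, HXT11, HXT13, HXT15 and HXT17 are among them, and the part of position in their values was not tested. HXT11 had 3.99, 4.28 and 6.01 CPM in 2SA in glucose, against 9.13, 9.29 and 8.65 CPM in WT, and 6.29, 5.69 and 4.62 CPM in 2SA in sucrose, against 10.8, 11.9 and 9.43 CPM in WT. GAL2, which lies far from any end and has no near copy, had 3.02 to 4.04 CPM over the 2SA libraries and 5.89 to 6.86 CPM over those of WT, so the genotypes did not overlap even across sugars. HXT1, HXT3 and HXT7, major glucose carriers, did not pass the test and were at 0.13 ± 0.12, -0.12 ± 0.18 and -0.30 ± 0.17, with adjusted p from 0.322 to 0.718. Of the called members, 5 have near copies at over 80% identity, and without the libraries numbered 2 only 1 member of the list was lower.

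In the list for sucrose and alpha-glucoside use, 3 of 12 tested members were lower (2.22% of all features tested were), none was higher, and the median was -0.33. Of the 12, 11 lie within 30 kb of an end, where 20.2% of all features tested were lower, and none of the 6 without a near copy was called. They were the maltose permeases MPH2 and MPH3, which are 99.9% identical, and the isomaltase IMA2. MPH2 and MPH3 fell by 1.59 ± 0.23 and 1.58 ± 0.24, from low counts. IMA2 had 6.88, 6.14 and 8.61 CPM in 2SA in glucose, against 24.4, 10.99 and 12.2 CPM in WT, and 10.9, 11.7 and 11.96 CPM in 2SA in sucrose, against 35.0, 27.5 and 18.4 CPM in WT. IMA2 was not called without the libraries numbered 2 (adjusted p 0.111, edgeR). SUC2, the secreted invertase that splits sucrose, was not called in the mean of both sugars, at -0.25 ± 0.08 with an adjusted p of 0.112. Its difference was 0.20 in glucose and -0.69 in sucrose, where it had 202, 560 and 439 CPM in 2SA and 291, 1068 and 672 CPM in WT. The sucrose difference taken alone passed both thresholds (adjusted p 0.0181, edgeR).

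The vitamin B6 genes were split between those that rose and those that fell. SNZ genes encode the synthase subunit and SNO genes the glutaminase subunit of the enzyme that makes pyridoxal phosphate, and each SNZ gene sits head to head with a SNO gene. The internal pair on chromosome XIII, SNZ1 and SNO1, rose, and of the pairs near chromosome ends SNZ2, SNO2 and SNZ3 fell. SNZ3, at chrVI:11363-12259, had 2.33, 1.77 and 3.19 CPM in 2SA in glucose, against 14.1, 33.0 and 38.4 CPM in WT. Cells in sucrose had 2.27, 1.24 and 3.74 CPM in 2SA and 19.3, 24.4 and 36.3 CPM in WT. The groups were far apart in each sugar and the fold was 11.3 lower in 2SA (mean -3.50 ± 0.21, adjusted p 4.62e-05, edgeR). SNZ2, on chromosome XIV, had 2.99 to 7.002 CPM over the 2SA libraries and 7.44 to 17.2 CPM over those of WT, without overlap (mean -1.11 ± 0.16). The reading frames of SNZ2 and SNZ3 are 99.3% identical, so the reads behind both values may be shared.

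SNZ1, at chrXIII:458408-459301, had 118, 91.1 and 149 CPM in 2SA in glucose, against 79.3, 60.0 and 75.1 CPM in WT. In sucrose it had 317, 186 and 263 CPM in 2SA and 155, 100 and 91.1 CPM in WT. All 2SA libraries were above the WT libraries of their sugar (mean 0.94 ± 0.09, adjusted p 0.00102, edgeR). SNO1 had 12.2, 15.4 and 20.5 CPM in 2SA in glucose and 6.41, 9.68 and 9.32 CPM in WT, and 37.5, 23.4 and 37.5 CPM in 2SA in sucrose and 14.6, 13.1 and 17.0 CPM in WT (mean 1.01 ± 0.10). Neither has a near copy by the threshold used. SNO3, the partner of SNZ3, was at 0.08 ± 0.77 and the other 4 members of the list, which modify or transport the vitamin, were within 0.13 of 0.

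The promoters of the SNZ genes are shown because genes of 1 function moved in opposite directions. They are read from the RefSeq R64 genome, whose coordinates are those of the table's build sacCer3, as the 250 bases before and 50 after the start of the reading frame, 5′ to 3′ on the strand of the gene. Capitals mark GGCGGC, the core of the Ume6 site, or its reverse complement GCCGCC. SNZ1 lies at chrXIII:458158-458457, plus strand, SNZ2 at chrXIV:13017-13316, plus strand and SNZ3 at chrVI:11113-11412, plus strand.
SNZ1: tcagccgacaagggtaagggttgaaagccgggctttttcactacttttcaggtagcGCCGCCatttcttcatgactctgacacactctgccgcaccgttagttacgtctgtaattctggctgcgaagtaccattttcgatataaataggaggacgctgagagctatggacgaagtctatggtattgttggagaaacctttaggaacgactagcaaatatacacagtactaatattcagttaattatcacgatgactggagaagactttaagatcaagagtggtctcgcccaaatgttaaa
SNZ2: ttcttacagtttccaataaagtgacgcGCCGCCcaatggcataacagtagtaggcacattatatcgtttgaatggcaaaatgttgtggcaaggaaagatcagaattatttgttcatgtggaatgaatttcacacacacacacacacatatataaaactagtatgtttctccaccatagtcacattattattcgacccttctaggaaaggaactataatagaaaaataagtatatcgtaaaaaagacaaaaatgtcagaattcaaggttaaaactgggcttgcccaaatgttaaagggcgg
SNZ3: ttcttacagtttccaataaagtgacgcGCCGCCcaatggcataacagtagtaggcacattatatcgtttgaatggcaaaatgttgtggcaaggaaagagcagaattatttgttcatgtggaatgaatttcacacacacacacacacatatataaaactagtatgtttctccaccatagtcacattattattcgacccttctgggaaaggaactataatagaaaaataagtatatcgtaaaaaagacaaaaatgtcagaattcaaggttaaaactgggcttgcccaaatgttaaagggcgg
The SNZ2 and SNZ3 windows were 99.3% identical base by base. All 3 hold the motif, 194 bases before the start in SNZ1 and 223 bases before it in SNZ2 and SNZ3. On either strand, GGCGGC was present in 15 of 125 promoters of lower genes (12%), 2 of 15 of higher genes (13.3%) and 286 of 5754 promoters of all genes tested (4.97%). Of those 15 lower genes, 11 have near copies, such as the COS and PAU genes, whose promoters may be copies too. A match is a stretch of letters and not a measured site.

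Thiamine genes were also called in both directions. Of 18 tested, 5 were lower (THI4, THI5, THI11, THI12 and THI13) and THI72 was higher, against 2.22% lower and 0.279% higher over all features tested. THI5, THI11, THI12 and THI13 encode the pyrimidine precursor enzyme, lie near chromosome ends, are near-identical copies of each other, and had WT values of 4.11 CPM or less. THI72, a transporter of the thiamine type far from any end, had 11.7, 10.2 and 12.2 CPM in 2SA in glucose, against 5.77, 5.79 and 6.33 CPM in WT. Its sucrose libraries had 16.7, 15.9 and 10.6 CPM in 2SA and 6.79, 7.32 and 7.12 CPM in WT. The groups did not overlap (mean 0.96 ± 0.11, adjusted p 0.00232, edgeR). Its near copy THI7 is 84.3% identical. No gene of the list was called lower without the libraries numbered 2 or without those numbered 1, and THI72 was called in both cases. THI5 also lost its call without glucose pair 1 or 3, and THI11 without glucose pair 3 (adjusted p 0.0519 and 0.0530 at most, edgeR).

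Genes of the phosphate regulon, which Pho4 switches on when phosphate is short, were lower in part, and none was higher. Of 29 tested, 6 were lower at over 1.5-fold (PHO11, PHO12, PHO89, SPL2, PHM6 and GIT1), against 2.22% of all features tested. Within 30 kb of an end, where 20.2% of all features tested were lower, lie 5 of the 29. The called PHO11, PHO12, PHO89 and GIT1 are among them, and the part of position in their values was not tested. At any fold 12 were lower, against 4.16% of all features tested. Of the 29, 26 had a negative mean difference, as did 2846 of the 6085 features tested. The median was -0.27, against 0.01 over all features tested. PHO89, the sodium and phosphate cotransporter at chrII:796798-798522, had 143, 91.8 and 81.1 CPM in 2SA in glucose, against 422, 193 and 232 CPM in WT. With sucrose the values were 319, 192 and 286 CPM in 2SA and 565, 578 and 630 CPM in WT. The groups did not overlap, and the fold was 2.44 lower in 2SA (mean -1.28 ± 0.11, adjusted p 0.000392, edgeR).

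PHO11, a secreted acid phosphatase 3.4 kb from the right end of chromosome I, had 12.7, 7.29 and 7.74 CPM in 2SA in glucose, against 41.1, 24.5 and 33.6 CPM in WT. The values in sucrose were 1.82, 0.674 and 3.89 CPM in 2SA and 10.99, 3.42 and 16.8 CPM in WT, where the ranges overlapped although every pair fell. Its fold was 4.26 lower in 2SA (adjusted p 1.92e-05, edgeR), and its near copy PHO12, 99.7% identical, fell by 1.08 ± 0.10. GIT1, the permease for glycerophosphoinositol, fell by 1.48 ± 0.13, with 3.62 to 7.31 CPM in 2SA and 8.79 to 26.1 CPM in WT. At smaller folds the high-affinity transporter PHO84 fell by 0.55, the kinase inhibitor PHO81 by 0.43 and the polyphosphate polymerase subunits VTC1 and VTC4 by 0.43 and 0.33. The count of lower members was 7 both without the libraries numbered 2 and without those numbered 1. With no replicate block it was 1.

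SPL2, which restrains low-affinity phosphate uptake, is shown with its promoter because it is internal to its chromosome, has no near copy and holds 3 copies of CACGTG, the core of the Pho4 site, in capitals (chrVIII:375051-375350, minus strand).
SPL2: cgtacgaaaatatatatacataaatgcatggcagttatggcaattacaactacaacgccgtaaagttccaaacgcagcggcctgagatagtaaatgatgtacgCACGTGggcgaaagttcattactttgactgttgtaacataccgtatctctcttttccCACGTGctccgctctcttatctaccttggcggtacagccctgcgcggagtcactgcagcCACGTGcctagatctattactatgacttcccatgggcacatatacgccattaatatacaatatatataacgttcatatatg
It had 109, 96.8 and 55.4 CPM in 2SA in glucose, against 157, 118 and 79.8 CPM in WT. Cells in sucrose had 61.1, 52.6 and 45.1 CPM in 2SA and 124, 190 and 89.0 CPM in WT. All 6 pairs fell, without overlap in sucrose and with overlap in glucose (mean -0.87 ± 0.11, adjusted p 0.00359, edgeR). CACGTG was present in 7 of 29 promoters of the regulon (24.1%), in 4 of 125 of lower genes (3.20%) and in 168 of all 5754 (2.92%).

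Genes for making NAD from tryptophan fell most in the pairs numbered 1. Of 15 tested, BNA1, BNA2 and BNA5 were lower, against 2.22% of all features tested, and none was higher. The list's median was -0.14. BNA2, the dioxygenase that opens the pathway, had 2.85, 1.44 and 1.73 CPM in 2SA in glucose, against 25.8, 3.65 and 3.57 CPM in WT. In sucrose it had 3.42, 4.23 and 1.65 CPM in 2SA and 40.3, 5.35 and 4.89 CPM in WT. BNA1, a dioxygenase of a later step, had 19.5, 22.7 and 22.2 CPM in 2SA in glucose and 140, 38.2 and 37.9 CPM in WT, and 33.7, 30.3 and 32.9 CPM in 2SA in sucrose and 214, 51.8 and 52.0 CPM in WT. For both genes the WT library numbered 1 was the high one in each sugar. BNA5, kynureninase, had 22.2 to 27.0 CPM over all 2SA libraries and 34.3 to 90.9 CPM over those of WT (mean -1.10 ± 0.18, adjusted p 0.0120, edgeR). All 3 were also called without the libraries numbered 1, and none without those numbered 2. BNA1 lost its call when any 1 pair was left out (adjusted p 0.0589 to 0.0852, edgeR), and BNA2 when any pair but the sucrose pair 2 was (up to 0.0923). The carrier of nicotinic acid TNA1 was lower at any fold, at -0.44.

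Of 27 tested middle and late sporulation genes, which growing haploids keep low, DIT1 and SPR3 were called lower, against 2.22% of all features tested. None was higher, and 21 had a negative mean difference, as did 2846 of the 6085 features tested. The median was -0.42, against 0.01 over all features tested. DIT1, which makes the dityrosine of the spore wall, had 1.38, 1.69 and 3.05 CPM in 2SA in glucose, against 13.3, 4.57 and 4.24 CPM in WT, and 3.68, 2.66 and 2.63 CPM in 2SA in sucrose, against 19.4, 5.19 and 6.75 CPM in WT. NDT80, the activator of middle genes, was lower at any fold, at -0.42. Outside that list MPC54, a meiotic component of the spindle pole body, had 4.18, 3.21 and 4.87 CPM in 2SA in glucose and 20.9, 10.1 and 11.5 CPM in WT. Its sucrose libraries had 4.91, 2.88 and 3.94 CPM in 2SA and 23.7, 8.93 and 11.2 CPM in WT. It did not overlap between genotypes and fell 3.44-fold (adjusted p 0.000633, edgeR). Summed over 7 sporulation markers, the libraries had 35.6 to 39.5 CPM in 2SA and 46.4 to 70.7 CPM in WT in sucrose, and 27.4 to 40.0 CPM in 2SA and 38.0 to 48.9 CPM in WT in glucose. The largest part was NDT80, at 15.4 to 26.8 CPM in 2SA and 21.8 to 40.6 CPM in WT. NDT80, DIT1, DIT2 and SPS2 fell in every pair. SPS100 did not, with 5.17, 4.16 and 5.87 CPM in 2SA in glucose, against 4.23, 3.79 and 5.35 CPM in WT. SPS1 and SPS4 were also higher in 2SA in some pairs. All 7 were detected in every group, and in bulk libraries fewer cells of a type and less RNA per cell cannot be told apart. The part of these markers, which include DIT1 and NDT80, in the result was not tested. DIT1 lost its call without glucose pair 2, sucrose pair 1 or sucrose pair 3 (adjusted p up to 0.0786, edgeR), and SPR3 without glucose pair 2 (0.0560). Without the libraries numbered 2 neither was called (adjusted p 0.1185 and 0.125, edgeR).

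Of 24 tested genes known to be held down by Ume6 and Rpd3, none was called higher and REC8 was called lower, with a median of 0.02. Over all features tested, 0.279% were called higher and 2.22% lower. REC8, the meiotic cohesin subunit, had 7.07, 5.6 and 5.37 CPM in 2SA in glucose, against 7.18, 11.4 and 12.8 CPM in WT, and 8.96, 8.23 and 6.22 CPM in 2SA in sucrose, against 12.7, 19.7 and 14.7 CPM in WT. Its ranges did not overlap, but the glucose libraries numbered 1 were nearly level, and the call was lost when any 1 of the 4 pairs numbered 2 or 3 was left out (adjusted p up to 0.0901, edgeR), as it was without all libraries numbered 2 (0.1795). Without the fold threshold CAR1 (0.48), CAR2 (0.57) and RED1 (0.48) were higher and SPO1 (-0.39) was lower. CAR1, arginase, had 233, 176 and 174 CPM in 2SA in glucose, against 129, 137 and 110 CPM in WT, and 116, 570 and 241 CPM in 2SA in sucrose, against 85.6, 435 and 214 CPM in WT. INO1 was above WT in all 6 pairs but did not pass (0.63 ± 0.25, adjusted p 0.169), and IME2, the kinase that starts meiosis, was at 0.09 ± 0.09 (adjusted p 0.557).

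The promoter of REC8 holds the Ume6 core, and that of BNA1 the Sum1 core GNCACAAA, a motif of a repressor of middle sporulation genes that was added after the called genes were seen. Capitals mark the motif or its reverse complement, at chrXVI:571329-571628, minus strand and chrX:471622-471921, minus strand.
REC8: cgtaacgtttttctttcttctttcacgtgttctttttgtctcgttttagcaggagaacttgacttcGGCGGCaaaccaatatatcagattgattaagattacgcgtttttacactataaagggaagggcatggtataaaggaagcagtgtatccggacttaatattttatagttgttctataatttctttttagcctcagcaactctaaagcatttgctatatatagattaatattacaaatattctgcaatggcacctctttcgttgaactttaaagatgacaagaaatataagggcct
BNA1: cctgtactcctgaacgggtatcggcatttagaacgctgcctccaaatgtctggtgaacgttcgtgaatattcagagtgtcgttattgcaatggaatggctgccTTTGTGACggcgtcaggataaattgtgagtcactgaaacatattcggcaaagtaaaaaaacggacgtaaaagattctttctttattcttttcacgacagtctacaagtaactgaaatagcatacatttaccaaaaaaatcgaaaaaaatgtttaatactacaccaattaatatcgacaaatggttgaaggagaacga
The Sum1 core was present in 14 of 27 middle and late sporulation promoters (51.9%), in 12 of 125 of lower genes (9.60%) and in 237 of all 5754 (4.12%). Of 15 NAD synthesis promoters, only 1 held it, that of BNA1 (6.67%), while 9 held TGACTC, the core of the Gcn4 site (60%). SUM1 itself was at -0.23 ± 0.08 with an adjusted p of 0.110. The 7 promoter motifs counted beside it, searched on both strands, included AGGGG of Msn2 and Msn4 (28.0% of lower genes, 21.9% of all), GATAAG of the GATA factors (16.8% and 14.7%), TGACTC of Gcn4 (7.20% and 8.08%) and TTACTAA of Yap1 (4% and 7.68%).

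Several mating genes of the a cell fell. Of 7 tested a-specific genes, BAR1, the protease that degrades alpha factor, was lower at over 1.5-fold, and MFA2, STE6 and ASG7 were lower at any fold. Over all features tested, 2.22% were lower at over 1.5-fold and 4.16% at any fold. All 7 had a negative mean difference, as did 2846 of the 6085 features tested, and their median was -0.53. Of 24 pheromone-response and haploid-specific genes, FUS1 and AGA1 were lower, against 2.22% of all features tested. None was higher, with a median of -0.11. FUS1, a membrane protein of cell fusion, had 17.6, 8.36 and 5.28 CPM in 2SA in glucose, against 45.1, 17.8 and 18.5 CPM in WT. With sucrose the values were 5.17, 3.89 and 3.84 CPM in 2SA and 30.6, 5.39 and 9.47 CPM in WT. No 2SA library reached a WT library of its sugar (mean -1.46 ± 0.23, adjusted p 0.00956, edgeR). AGA1, which anchors a-agglutinin, fell by 0.77 ± 0.17 but was level in sucrose pair 2, at 27.4 CPM in 2SA and 27.0 CPM in WT. The calls of BAR1 and AGA1 were lost without glucose pair 2 or 3 or sucrose pair 1 or 3 (adjusted p up to 0.0676 and 0.0871, edgeR). The summed a-cell markers given above moved with these genes, and their part in the result was not tested. Without the libraries numbered 2, 4 of the 7 a-specific genes were lower at over 1.5-fold. AFB1, which encodes an a-factor barrier of alpha cells and is thus not a gene of the a cell, was chosen after its value was seen. It had 7.04 to 11.02 CPM in 2SA and 16.2 to 31.1 CPM in WT (mean -1.38 ± 0.17). The promoter of FUS1 is shown for its 3 copies of TGAAAC, the core of the Ste12 site, in capitals (chrIII:71553-71852, plus strand).
FUS1: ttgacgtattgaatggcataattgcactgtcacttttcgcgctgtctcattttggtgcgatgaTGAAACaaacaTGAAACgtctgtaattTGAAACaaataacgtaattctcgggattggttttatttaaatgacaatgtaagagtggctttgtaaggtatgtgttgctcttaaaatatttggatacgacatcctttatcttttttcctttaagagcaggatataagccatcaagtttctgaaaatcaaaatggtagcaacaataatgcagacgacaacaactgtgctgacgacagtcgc
TGAAAC was present in 58.3% of promoters of the pheromone list, 12.8% of lower genes and 19.4% of all.

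Genes for using poor nitrogen sources were called in both directions. DAL4, the allantoin permease, had 1.57, 0.947 and 1.87 CPM in 2SA in glucose, against 19.1, 6.32 and 5.89 CPM in WT. The values in sucrose were 1.67, 0.935 and 1.12 CPM in 2SA and 18.9, 4.10 and 5.71 CPM in WT. The genotypes did not overlap, and the fold was 6.55 lower in 2SA (adjusted p 0.00102, edgeR). Its neighbour DAL1, allantoinase, fell by 1.89 ± 0.34, and UGA4, the permease for GABA, by 0.95 ± 0.13. Neither was called without the libraries numbered 2 (adjusted p 0.0855 and 0.0644, edgeR). DUR12, the table's symbol for urea amidolyase, rose by 0.67 ± 0.10, with 57.6, 57.1 and 59.4 CPM in 2SA and 28.9, 54.0 and 43.0 CPM in WT in glucose, and 136, 115 and 97.3 CPM in 2SA and 73.4, 64.7 and 55.7 CPM in WT in sucrose. Without glucose pair 1 its difference was 0.56, under the fold threshold. Of 14 tested genes for allantoin and urea use, 2 were lower and 1 was higher, with a median of 0.03. Over all features tested, 2.22% were lower and 0.279% higher.

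Stress and storage genes were lower in part, and unevenly between libraries. Of 42 tested general stress genes, HSP31, GSY1, GPH1 and PAI3 were lower, against 2.22% of all features tested, and none was higher. Of the 42, 39 had a negative mean difference, as did 2846 of the 6085 features tested. The median was -0.25 (-0.07 in glucose and -0.46 in sucrose). GPH1, glycogen phosphorylase, had 684, 108 and 41.5 CPM in 2SA in glucose, against 650, 139 and 78.2 CPM in WT, and 221, 1016 and 110 CPM in 2SA in sucrose, against 387, 2042 and 265 CPM in WT. The sucrose libraries numbered 2 of both genotypes were the highest, and none of the stress genes was called without the libraries of that number. When single pairs were left out, GPH1 lost its call without glucose pair 2 or 3 (adjusted p up to 0.0559, edgeR), PAI3 without 4 of the pairs and HSP31 without 5. Of 26 glycolysis genes, the minor isoforms TDH1, GPM2 and PYK2 were lower, against 2.22% of all features tested. PYK2 was not called without the libraries numbered 2 (adjusted p 0.0771, edgeR). TDH1 had 267, 57.6 and 78.5 CPM in 2SA in glucose, against 350, 82.2 and 111 CPM in WT, and 259, 183 and 95.3 CPM in 2SA in sucrose, against 691, 445 and 187 CPM in WT. Its drop was -0.47 in glucose and -1.23 in sucrose, with an unadjusted p of 0.000332 and an adjusted p of 0.505 for the difference between sugars (edgeR).

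IMD2, an enzyme of guanine nucleotide synthesis that lies 6.7 kb from the right end of chromosome VIII, was the only lower gene of 27 in purine synthesis, against 2.22% of all features tested. It had 67.0, 47.5 and 29.8 CPM in 2SA in glucose, against 192, 78.8 and 77.0 CPM in WT, and 23.9, 27.0 and 29.7 CPM in 2SA in sucrose, against 101, 67.7 and 77.5 CPM in WT. The genotypes did not overlap within a sugar (mean -1.40 ± 0.13, adjusted p 0.000633, edgeR), and its closest copy IMD3 is 89.0% identical. Among 36 cell wall genes the flocculins FLO1 and FLO5 were lower and GAS3 was higher, against 2.22% lower and 0.279% higher over all features tested. FLO5 had 12.4 to 19.2 CPM over all 2SA libraries, while WT had 17.9, 69.9 and 37.8 CPM in glucose and 13.3, 104 and 47.7 CPM in sucrose. Of 30 PAU, DAN and TIR genes, 14 could be tested and 4 were lower (PAU5, PAU6, PAU24 and DAN1), against 2.22% of all features tested. WT values were at most 4.12 CPM in the 3 PAU genes. FLO1 lost its call without glucose pair 2 (adjusted p 0.0600, edgeR), FLO5 and PAU24 without any 1 of the 4 pairs numbered 2 or 3, PAU5 without glucose pair 2 or 3, and PAU6 without any 1 pair. Without the libraries numbered 2, no gene of the cell wall list and none of the PAU, DAN and TIR list was called lower.

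The 17 higher features were few and of mixed kind. Beside SNZ1, SNO1, THI72 and DUR12 they included GAS3, a glucan-remodelling enzyme of the cell wall, which had 57.7, 45.5 and 47.4 CPM in 2SA and 37.8, 31.6 and 38.9 CPM in WT in glucose. Cells in sucrose had 28.2, 26.8 and 37.3 CPM in 2SA and 10.99, 15.04 and 21.8 CPM in WT, again without overlap (mean 0.73 ± 0.09, adjusted p 0.00271, edgeR). REC102, needed for meiotic recombination, rose by 0.65 ± 0.11, the helicase gene PIF1 by 0.65 ± 0.15, aconitase ACO1 by 0.64 ± 0.15, the forkhead factor FKH1 by 0.60 ± 0.10, the mitochondrial chaperone ECM10 by 0.75 ± 0.18 and the uncharacterized YBR184W by 0.79 ± 0.15. Several of these calls depended on single pairs. The call of ECM10 was lost when any 1 pair was left out, those of PIF1 and ACO1 without 5 of the 6 pairs (adjusted p up to 0.0885 and 0.124, edgeR), and those of FKH1, YBR184W and REC102 without 3, 2 and 1 of them. None of these 6 was called without the libraries numbered 2 (adjusted p 0.0821 to 0.238, edgeR).

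Of 46 tested Ty reading frames, 4 were higher and 1 was lower, with a median of -0.27. Over all features tested, 0.279% were higher and 2.22% lower. Without the libraries numbered 1, 4 were higher and 9 lower, and without those numbered 2, 3 were higher and 0 lower (edgeR). YDR365W-B, on chromosome IV, had 28.0, 23.1 and 23.2 CPM in 2SA in glucose, against 3.09, 3.94 and 3.61 CPM in WT. In sucrose it had 13.7, 11.2 and 16.4 CPM in 2SA and 3.10, 1.97 and 2.72 CPM in WT. The genotypes were fully apart (mean 2.60 ± 0.12, adjusted p 1.19e-05, edgeR). YNL284C-B, on chromosome XIV, had 178, 169 and 172 CPM in 2SA in glucose and 32.7, 72.9 and 80.3 CPM in WT, and 121, 79.3 and 143 CPM in 2SA in sucrose and 39.6, 47.7 and 57.1 CPM in WT. YDR210C-D fell by 0.76 ± 0.12. Each of these frames has 71 near copies, so where its reads came from is uncertain. YER138C, higher in the mean, was at -0.74 in glucose and 2.99 in sucrose, with an adjusted p of 0.212 for the difference. ETS1-1 and ETS1-2, the rows for the external transcribed spacer of ribosomal RNA, were also called higher from few counts: ETS1-1 had 1.44 to 3.46 CPM over the 2SA libraries and 0 to 0.442 CPM over those of WT.

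Several groups held no called gene. None of the 16 subunits of Rpd3L and Rpd3S was called, their differences lay between -0.11 and 0.23, and SIN3 was at -0.02 ± 0.05 and UME6 at 0.08 ± 0.08. None of 20 genes for chromatin and telomere silencing, a list added after the pattern at the chromosome ends was seen, was called. SIR2 was at 0.02 ± 0.08, SIR3 at 0.13 ± 0.05 and SIR4 at -0.03 ± 0.09, and the acetyltransferase SAS2 was higher at any fold, at 0.46 ± 0.08. Of 138 ribosomal protein genes none was called, with a median of 0.11 (-0.05 in glucose and 0.29 in sucrose), and of 87 ribosome biogenesis factors none was called, with a median of 0.14. The lists for phospholipid, histone, sulfate, iron, ergosterol, gluconeogenic and respiratory genes held no called member either.

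**Figure D5:**
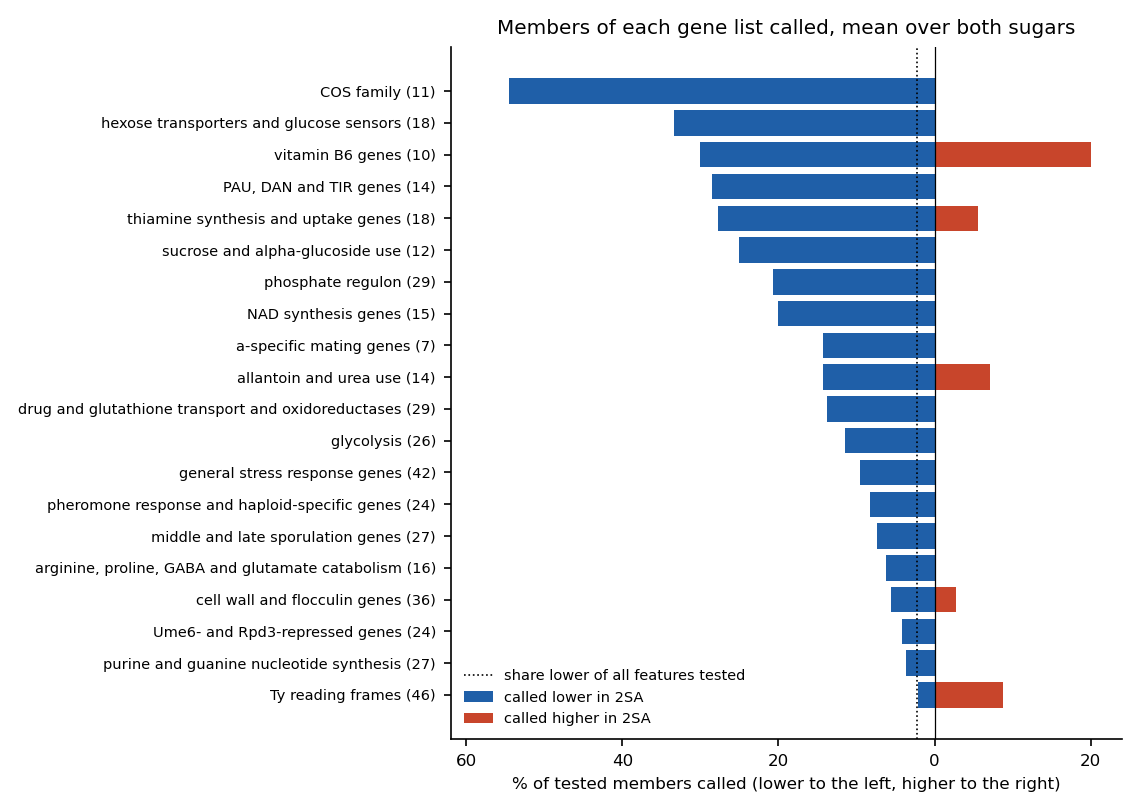
Share of tested members called lower (bars to the left) and higher (bars to the right) in the mean of both sugars, in percent, for each list with a called member; the number tested stands in parentheses and the dotted line is the share of all features called lower, 2.22%. The COS family leads with 6 of 11 members lower, and vitamin B6 genes have bars on both sides.

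Whether the mutation acted differently in the sugars was tested directly. The difference of the effects passed the thresholds in no feature (edgeR), while 302 features (4.96%) had an unadjusted p under 0.05 and DESeq2 called 10. A p that misses the threshold does not show that the effects were equal. With 3 pairs a sugar, the difference for IRC4, sucrose minus glucose, was 0.08 ± 0.15 (SE). That for SUC2 was -0.89, with an unadjusted p of 0.000428 and an adjusted p of 0.521 (edgeR).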

How the data were processed

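Deposited by the authors were whole-number read counts, not normalized, in a matrix of 7127 features and 12 libraries. Reads were aligned with Bowtie 0.12.2 to sacCer3, per the submitters' processing notes; the counting program and its handling of strand and of reads with several matches are not stated in the sources at hand. Overlapping genes, antisense genes and near copies are therefore uncertain. Library totals were 20775911 to 25360037 counts.

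All 12 libraries entered 1 fit in edgeR 4.0.16 (R 4.3.3; quasi-likelihood F-test), after TMM scaling (factors 0.9215 to 1.115) and the default filter (minimum count 10). The design held 6 pair terms and the 2SA coefficient in each sugar (4 residual degrees of freedom), and the tested contrast was the mean of both coefficients. A feature was called at a Benjamini-Hochberg adjusted p under 0.05 and a fold over 1.5, the thresholds of the design text. The numbers pair the libraries by the data: deviations from group means of same-numbered 2SA and WT libraries correlated, with r of 0.654, 0.611 and 0.545 for glucose pairs 1 to 3 and of 0.603, 0.847 and 0.799 for sucrose pairs 1 to 3. The p-values measure the spread of the 2SA minus WT differences between pairs of the same sugar. Spread between replicates that both libraries of a pair share is taken up by the pair terms. Replicates differed far beyond sampling noise (lowest chi-square 87.4 for each degree of freedom).

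CPM are TMM-scaled and ± is the standard error. Near copies are BLAST+ 2.17.0 matches of at least 80% identity over 100 bp. Motifs were searched in 300 bases of RefSeq R64 around each start. Sequence and position came from R64, which gives the same start for 99.9% of 6047 matched features. Alternatives were other scalings, filters, tools (DESeq2 1.42.0, limma 3.58.1) and blocks, and leaving out pairs.

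The members, gene lists and tests were chosen with earlier results of these data known, so no list is independent evidence of its direction. Genes are named by a rule: the 14 largest increases and decreases among called genes with the same sign in all 6 pairs and at least 5 CPM in the higher genotype, up to 3 called genes per list, and 12 fixed genes. Other genes are named as the called members of a counted list or run and were chosen after their values were seen. Of the fixed genes, LEU2 and MET17 were not tested; URA3 was at -0.07 ± 0.08, HIS3 at 0.10 ± 0.08 and HXK2 at -0.05 ± 0.13 between 2SA and WT, with adjusted p of 0.477 or more (edgeR).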

Additional observations from a re-analysis of the deposited data

How the results depend on the processing

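Every called feature still tested kept its sign in every alternative, while the counts depended on how pairs were treated. With no replicate block, 6 features were higher and 32 lower (6 and 33 at any fold), and 38 of the 152 calls remained. With an additive replicate block, with numbers shared between sugars, 7 were higher and 54 lower (8 and 58 at any fold). Leaving out 1 pair gave 13 to 19 higher and 82 to 119 lower, 26 to 72 and 107 to 191 at any fold, and 0 to 1 for the difference between sugars. Chosen after seeing the data were 3 further alternatives: leaving out the libraries numbered 1 (52 higher at any fold, 1 for the difference) or numbered 3 (64 lower; 16 higher and 75 lower at any fold), and summing both sugars (56 lower; 13 higher and 62 lower at any fold). Without those numbered 2, 11 were higher and 53 lower (12 and 60 at any fold). DESeq2 called 203 higher at any fold and 10 for the difference. A test against a fold of 1.2 called 10 higher and 80 lower, and features with no near copy held 10 higher. Other scalings and filters, a common coefficient and voom kept the counts within 1.5 times.

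Uncalled genes near 0 changed sign. Over single pairs left out, RPD3 lay between -0.01806 and 0.0495, UME6 between -0.002357 and 0.133, HXK2 between -0.1571 and 0.06687 and URA3 between -0.1227 and 0.008946. Without number 1, UME6 was at -0.0131 and URA3 at 0.04961, without number 2, RPD3 was at -0.01276 and HXK2 at 0.05982, and without number 3, RPD3 was at -0.0313. The fit had 4 residual degrees of freedom, and 46 of the lower features had a WT mean under 5 CPM. The cause of these shifts was not tested.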

Other observations

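Genes outside the lists, chosen after their values were seen, were lower in the mean of both sugars. HFM1, a helicase of meiotic crossing over, fell by 0.96 ± 0.08, with 9.55 to 16.9 CPM over the 2SA libraries and 20.7 to 30.4 CPM over those of WT, so the genotypes did not overlap even across sugars. The meiotic genes MSH4 and HOP2 fell by 0.63 ± 0.13 and 0.60 ± 0.14, with overlap in at least 1 sugar. DTR1, a transporter of the dityrosine precursor, fell by 1.49 ± 0.23, with 0.374 to 1.37 CPM in 2SA and 1.61 to 3.31 CPM in WT. MIP6 and PES4, related RNA-binding proteins, fell by 2.74 ± 0.45 and 1.79 ± 0.43, and had 3.31 CPM or less in every WT library.

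SRY1, which breaks down hydroxyaspartate, had 70.1, 52.1 and 78.4 CPM in 2SA in glucose, against 221.5, 97.3 and 119 CPM in WT. Its sucrose values were 174, 136 and 126.5 CPM in 2SA and 516, 212 and 175 CPM in WT, and the WT library numbered 1 was the highest in both sugars. RNR3, a ribonucleotide reductase subunit induced by DNA damage, fell by 0.66 ± 0.10, with 5.98 to 10.7 CPM in 2SA and 11.1 to 16.4 CPM in WT. HUG1, of the same response, fell by 1.04 ± 0.21 and had a WT mean of 1.22 CPM. SEO1, a putative permease near the left end of chromosome I, fell by 3.61 ± 0.51, with 0 to 0.243 CPM in 2SA and 0.402 to 3.22 CPM in WT. These calls come from the edgeR fit over 6085 features. Among the lists not described above, neither of the 2 alpha-specific genes tested and none of the 5 strain marker genes tested was called.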
